A study of Homo sapiens with 12 samples.

Results

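The genes described here encode the SR proteins, the heterogeneous nuclear ribonucleoproteins (hnRNPs), the core Sm proteins, the proteins specific to the U1 and U2 snRNPs, and the SF3A and SF3B subunits. They were taken by gene symbol (SRSF followed by a number, HNRNP followed by letters or digits without pseudogene names, SNRPA to SNRPG with their numbered forms, and SF3A or SF3B followed by a digit) and by a minimum of 1 TPM, reached in 2 or more of the 12 libraries. TPM is Stringtie's transcript abundance, corrected for length and scaled to one total per library, so that levels of different genes can be compared. The rule took 52 of 57 named genes, out of 60504 genes listed and 16404 genes at the same minimum. The 52 genes were 11 SR proteins, 21 hnRNPs, 4 U1- and U2-specific proteins, 7 core Sm proteins, and 9 SF3A and SF3B subunits. The 5 named genes that stayed under the minimum were SRSF12 and HNRNPCL1 to HNRNPCL4.

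SR proteins bind exonic enhancers and help the spliceosome to define an exon, whereas hnRNPs coat the nascent transcript and often act against the use of a splice site. The Sm proteins form the ring on which the U1, U2, U4 and U5 snRNAs are assembled, and the U11 and U12 snRNAs of the minor spliceosome carry the same ring. SF3A and SF3B belong to the U2 snRNP, and SF3B is also a part of the U11/U12 di-snRNP, in which U11 recognises the 5′ splice site of the rare U12-type introns. Many genes for SR proteins and hnRNPs are known to adjust their own transcripts through exons that lead to decay of the message.

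U12-type introns start with a nearly invariant sequence, and introns of at least 60 bases that start with ATATCCTT or GTATCCTT on the gene's strand were searched in the GENCODE 44 annotation on hg38. Of 402166 introns, 809 (0.201%) started with one of these sequences. Among the 52 genes, 4 held such an intron, namely SRSF10, HNRNPL, HNRNPLL and HNRNPM. The 5′ splice sites are shown because they are the sites that U11 reads. Each line gives the last 10 exon bases and the first bases of the intron, on the strand of the gene, with the searched sequence in capitals.
SRSF10 (minus strand, chr1:23978693-23978722): cttatgttcaATATCCTTtcttcagatggc
HNRNPL (minus strand, chr19:38845630-38845659): cgatggtggaATATCCTTtgctggaaaaca
HNRNPLL (minus strand, chr2:38583821-38583850): caatggttgaATATCCTTtatttgtaaatt
HNRNPM (plus strand, chr19:8466379-8466408): caagctatatGTATCCTTctgcaggaattc

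The U11 snRNA gene RNU11 starts on the plus strand of hg38 with the 30 bases below, in which the capitals mark the stretch complementary to the CCTT of the sites above.
RNU11 (chr1:28648600-28648629): aaaAAGGgcttctgtcgtgagtggcacacg

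HNRNPL and HNRNPLL are paralogues, and both carried the site at intron 4 of 12 of the canonical transcript. In SRSF10 it was intron 2 of 5 and in HNRNPM intron 7 of 15. The ends of the same introns also held the sequence CTTAA within their last 40 bases, a stretch known from the branch point of U12-type introns. It was found in 4.45% of all introns and in 43.8% of those with a U12-type start. The last 30 bases of each intron follow, with the CTTAA nearest to the 3′ end in capitals. In HNRNPLL the stretch holds a further copy in lower case.
SRSF10 (minus strand, chr1:23975078-23975107): aaacttcccaagcccCTTAAcatttagcac
HNRNPL (minus strand, chr19:38844105-38844134): tgtgatgggactttcCTTAActtgactcac
HNRNPLL (minus strand, chr2:38582169-38582198): cttaaaccgaatttcCTTAAtagagcttat
HNRNPM (plus strand, chr19:8467505-8467534): tgcaagaaatagcCTTAAttgtaataccag

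All 12 libraries came from the human bladder cancer line T24, which is an established one. In the knockout comparison, 2 libraries labelled U11 knockout stood against 2 untreated controls. In the overexpression comparison, 6 libraries labelled U11 overexpression stood against 2 untreated controls, and the overexpression libraries carried the line labels 79, 86 and 87 with 2 libraries each. By the study's methods, the knockout cells were a monoclonal line made with CRISPR/Cas9. The overexpressing cells were stable lines made with a pcDNA-U11 plasmid, likewise after monoclonal selection. A monoclonal line carries the differences of its founder cell, and the labels do not say whether libraries came from separate cultures, so that p-values measure the spread between these libraries only. The meaning of the line labels is not given in the sources used here.

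U11, as the summed TPM of its 2 listed entries, did not follow the knockout label. The controls had 21.4 and 23.8 TPM of U11, and the libraries with the knockout label had 31.6 and 37.4 TPM (exact permutation test, two-sided, p = 0.333, the smallest p that 2 against 2 allows), and these libraries are therefore named by their label throughout. Whether the knockout label holds for them cannot be told from these tables, and the direction of every fold change of the knockout comparison rests on it. In the overexpression comparison it was 61.9 and 53.6 TPM for line label 87, 3.98 and 3.72 TPM for 86, 0.18 and 0.41 TPM for 79, and 0.03 and 0.62 TPM in the controls (exact permutation test of the 6 against the 2, two-sided, p = 0.286, where the smallest possible is 0.0714). That test took libraries of one line label as separate units. The untreated controls of the 2 comparisons thus differed in U11 TPM, at 21.4 and 23.8 against 0.03 and 0.62. The 2 sets of libraries also differed in make-up, as described below. U11 TPM is therefore read only within 1 comparison, and whether it follows the level in the cells was not tested. The aligned bases per library, taken from the ratio of coverage to FPKM, ranged from 9.07 to 15.3 gigabases. All 6 epithelial, mesenchymal and adhesion markers chosen for T24 (KRT7, KRT8, KRT18, KRT19, VIM, CD44) were above 1 TPM in all libraries. Of 9 markers of blood, endothelial and muscle cells, 7 were below 1 TPM in all libraries and CD14 reached at most 1.18 TPM. The remaining one, the cadherin gene CDH5, moved with the labels. Its controls had 4.85 and 4.75 TPM, against 0.03 TPM in both libraries with the knockout label, and it was at 34.1 and 32.2 TPM for line label 79 against 3.08 to 5.28 TPM in the other 6 libraries of that comparison. The part of this marker in the results was not tested.

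All 52 genes were above 1 TPM in all 12 libraries. HNRNPA1, a shuttling hnRNP that antagonises SR proteins, had the highest mean in the controls of the knockout comparison, 532 ± 19.7 TPM (SD, n = 2), ahead of HNRNPC, which binds uridine tracts, at 402 ± 10.9 TPM. The core Sm gene SNRPB followed at 387 ± 17.0 TPM, and its interval of 1 SD overlapped that of HNRNPC. In the controls of the overexpression comparison the first place went to HNRNPA2B1 at 1463 ± 58.4 TPM (SD, n = 2), before HNRNPA1 at 1283 ± 53.0 TPM. The lowest levels apart from HNRNPH2, which is treated below, belonged to HNRNPLL, SRSF8 and HNRNPA1L2 in both sets of controls. Libraries of one group were close to each other. The higher of the 2 values exceeded the lower by a median factor of 1.05 to 1.07 over the 52 genes in each of the 6 groups.

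The knockout comparison asks which of these genes moved with the U11 knockout label. HNRNPLL, an hnRNP known for regulating CD45 splicing in lymphocytes, rose, and SRSF8, an SR protein gene related to SRSF2, fell. These were the only 2 of 52 genes that passed an unadjusted P under 0.05 together with a fold change of at least 1.5 (limma on log2(TPM + 1)), the thresholds used in the study. Of all 14356 genes tested, 11.8% passed, 8.61% upward and 3.15% downward, whereas the 52 genes gave 1 in each direction. No call was made among the U1- and U2-specific proteins, the core Sm proteins, or the SF3A and SF3B subunits.

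**Figure D1:**
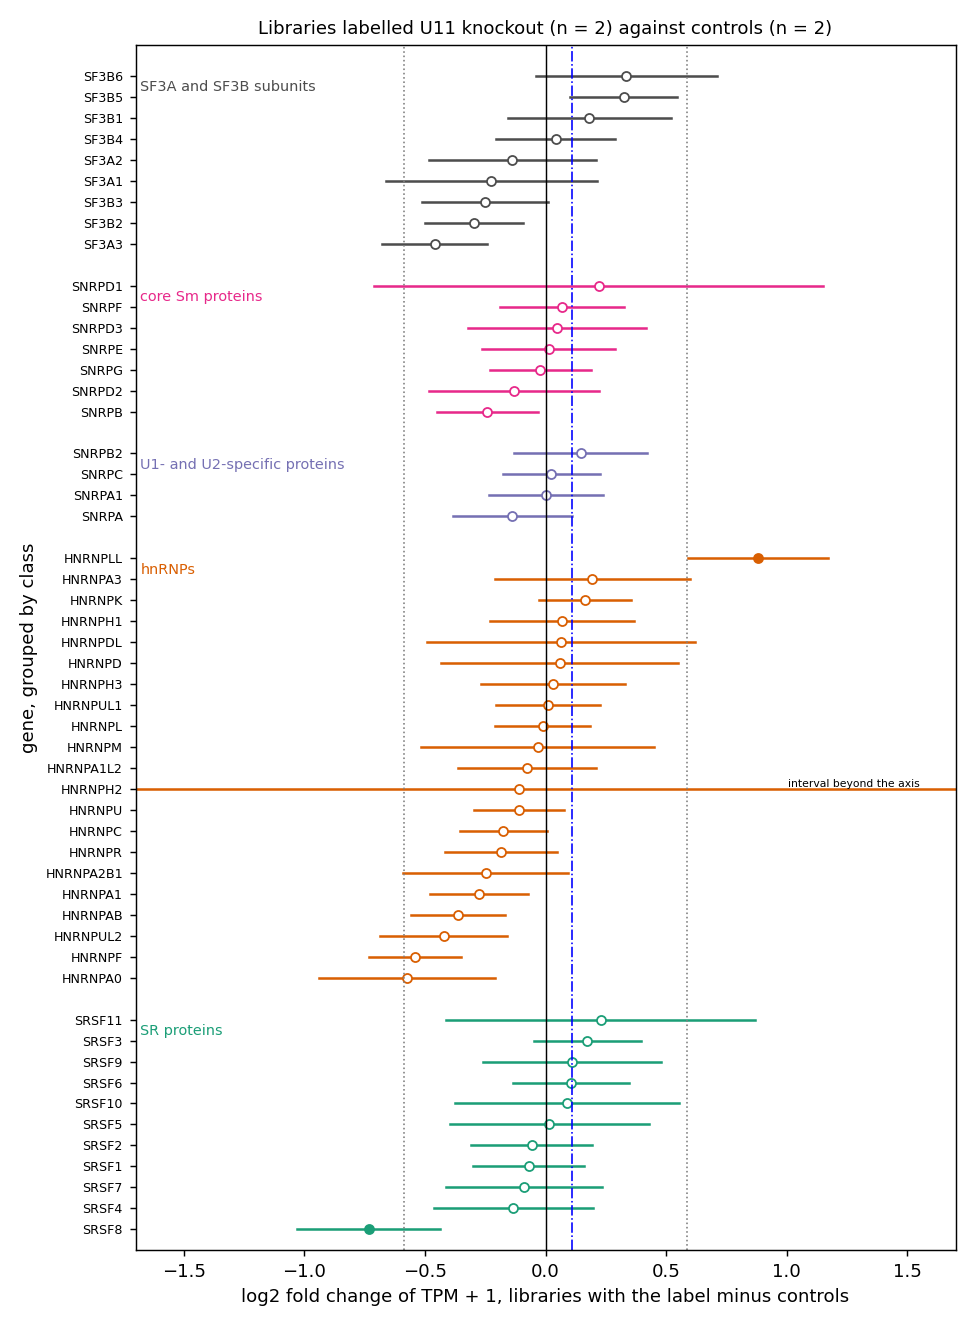
Log2 fold change of TPM + 1 in the 2 libraries labelled U11 knockout against their 2 controls, with the 95% interval from limma, for the 52 genes by class. Filled points were called, dotted lines mark a fold change of 1.5, and the dash-dotted blue line marks the median of all 14356 genes tested (0.11). HNRNPLL at 0.88 and SRSF8 at -0.73 are the filled points, and the interval of HNRNPH2 runs beyond the axis.

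HNRNPLL (ENSG00000143889, chr2:38561978-38603586, minus strand) had 8.002 and 8.012 TPM in its controls, against 16.2 and 15.0 TPM under the knockout label. Both of the latter were above both controls, and the gap was larger than the spread within either group. The log2 fold change was 0.88 (SE 0.11, adjusted P = 0.0236 by limma). SRSF8 (ENSG00000263465, chr11:95067197-95071224, plus strand) had 9.37 and 9.78 TPM in its controls, against 5.49 and 5.23 TPM under the knockout label. The groups did not overlap, and the log2 fold change was -0.73 (SE 0.11, adjusted P = 0.0342 by limma).

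Below the fold change threshold on the log2(TPM + 1) scale, 3 further genes showed the next largest differences, all downward. HNRNPF, which binds runs of G, had control levels of 275.5 and 275.6 TPM and levels of 193 and 185 TPM under the knockout label (log2 fold change -0.54, SE 0.07, adjusted P = 0.0272 by limma). SF3A3, one of the subunits of SF3A, went from 72.9 and 74.9 TPM to 53.8 and 53.1 TPM (-0.46, SE 0.08, adjusted P = 0.0452 by limma). HNRNPA0, which binds AU-rich elements, went from 21.1 and 20.8 TPM to 12.2 and 15.4 TPM (-0.57, SE 0.14, adjusted P = 0.0775 by limma). In each of these genes both libraries with the label were below both controls.

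**Figure D2:**
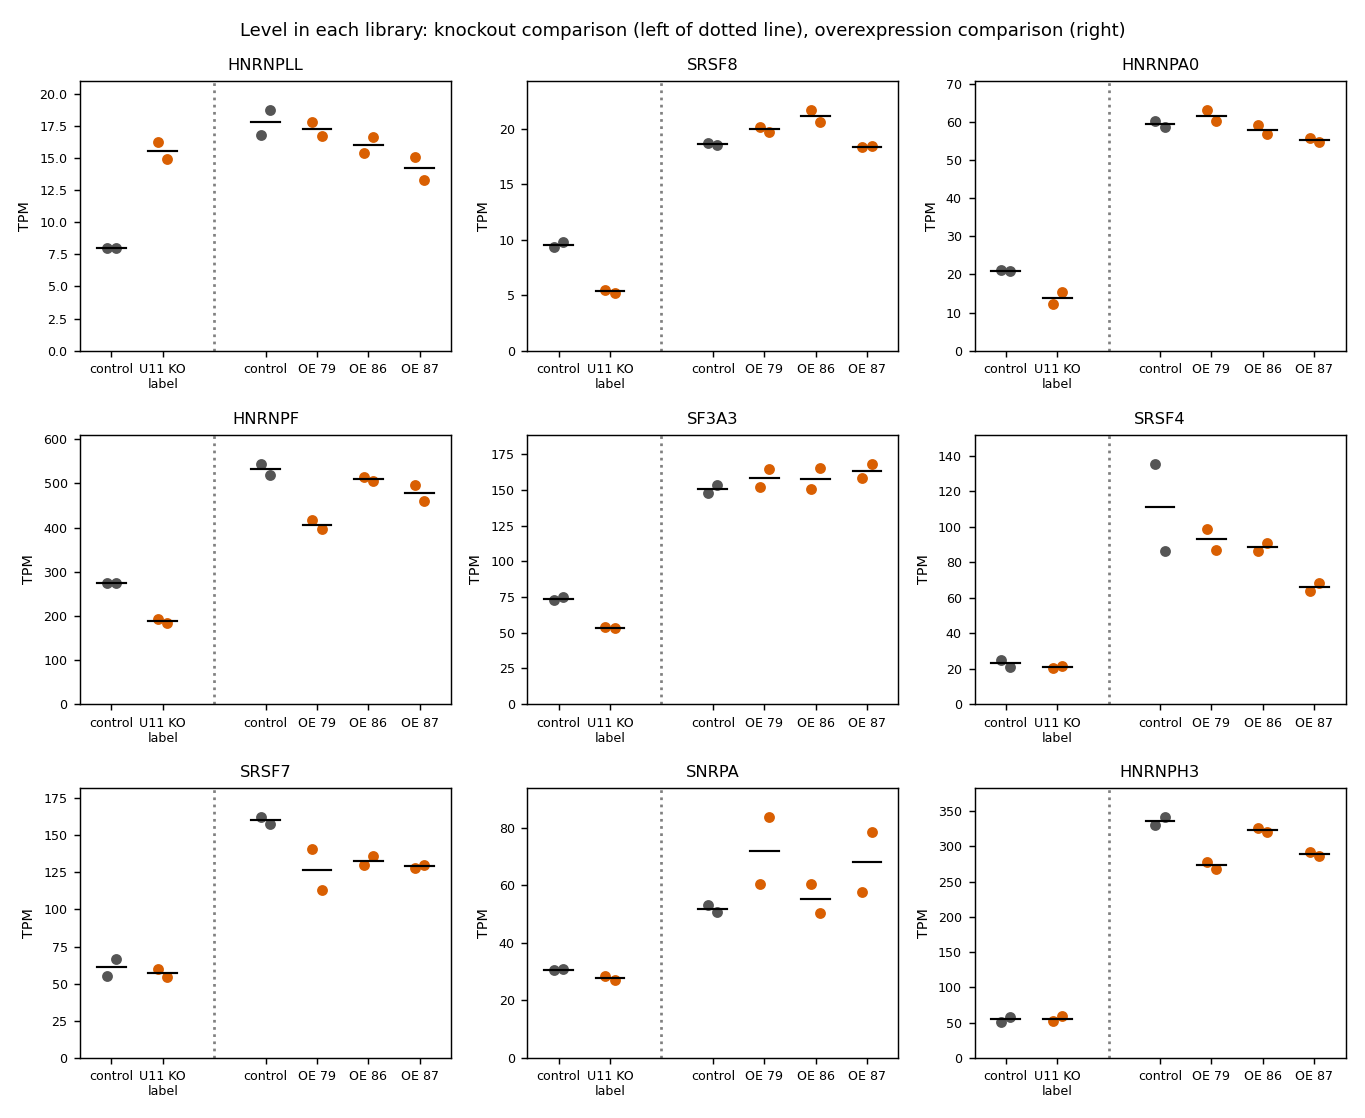
TPM in each library for 9 genes named in the text. Grey points are controls, orange points are libraries labelled U11 knockout (KO) or U11 overexpression (OE, with line label), and bars are means of 2 libraries. HNRNPLL was higher under the knockout label, with means of 8.01 and 15.6 TPM, and SRSF8, HNRNPA0, HNRNPF and SF3A3 were lower there.

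Without the fold change threshold, 11 of 52 genes had an unadjusted P under 0.05, against 30.1% of all genes tested. Of these, 9 were lower and 2 higher, while 9.53% of all genes were lower and 20.6% higher at that P. After adjustment 4 of 52 remained under 0.05, namely HNRNPLL, HNRNPF, SRSF8 and SF3A3, against 7.82% of all genes. Besides HNRNPF, SRSF8 and SF3A3, the genes lower at an unadjusted P under 0.05 were HNRNPA0, HNRNPUL2, HNRNPAB, SF3B2, HNRNPA1 and SNRPB, with log2 fold changes from -0.57 to -0.24 and adjusted P from 0.0557 to 0.133 by limma. SF3B5, the smallest subunit of SF3B, was the other gene that was higher, with control levels of 112 and 106 TPM against 141 and 133 TPM (log2 fold change 0.32, SE 0.09, adjusted P = 0.0882 by limma). Of HNRNPUL2, 42.1% of the 150-base windows of its transcripts were identical in the overlapping readthrough entry HNRNPUL2-BSCL2, which itself stayed between 0.59 and 4.38 TPM, and its value is uncertain to that extent. No 150-base window of HNRNPLL, SRSF8, HNRNPF, SF3A3 or HNRNPA0 was shared with another gene.

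The direction of small differences depended on the scaling. Over all genes, the median log2 fold change was 0.11 on the TPM scale, and median ratio scaling shifted it by -0.13. On the TPM scale 25 of the 52 genes were higher and 27 lower, and with median ratio scaling 9 were higher. The median of the 52 genes was -0.02, and 11 of them lay above the median of all genes. Relative to that median HNRNPLL was 0.77 higher on the log2 scale, whereas SRSF8 was at -0.84, HNRNPA0 at -0.68, HNRNPF at -0.65 and SF3A3 at -0.57. With median ratio scaling, 5 genes were called, 1 upward and 4 downward, since HNRNPA0, HNRNPF and SF3A3 then passed the fold change threshold.

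By class, the 21 hnRNPs had a median log2 fold change of -0.08 and a range from -0.57 to 0.88, with 3 of them above the median of all genes. The 11 SR proteins had a median of 0.02, and apart from SRSF8 they ranged from -0.13 (SRSF4) to 0.23 (SRSF11) without passing the test. The 7 core Sm proteins had a median of 0.01. SNRPB, which forms the Sm ring together with the D, E, F and G proteins, was at 387 ± 17.0 TPM in the controls and 327 ± 16.5 TPM under the knockout label (SD, n = 2 each), and the other Sm genes ranged from -0.13 to 0.22. SNRPA and SNRPC of the U1 snRNP and SNRPA1 and SNRPB2 of the U2 snRNP lay between -0.14 and 0.15. SF3B1, the largest SF3B subunit and a frequent site of mutation in cancer, was at 67.7 ± 8.70 TPM in the controls and 76.7 ± 7.01 TPM under the label. The 95% interval stayed within a fold change of 1.5 in both directions for 38 of 52 genes, against 44.5% of all genes tested. For the other 14 genes the interval reached beyond that size. Of these, 2 were called, 4 had an unadjusted P under 0.05 without a call (HNRNPF, SF3A3, HNRNPA0 and HNRNPUL2), and 8 had a larger P, so that their intervals held both no change and a change beyond that size.

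Of the 4 genes with a U12-type intron, HNRNPLL passed the test and the other 3 did not, beside 11.8% of all genes that passed. The part of these introns in the differences was not tested. SRSF10, which represses splicing when dephosphorylated, had 47.8 and 65.7 TPM in its controls, against 64.1 and 55.6 TPM under the knockout label (log2 fold change 0.09, 95% interval -0.37 to 0.55). HNRNPL, which binds CA repeats, had 166.0 and 161 TPM against 161 and 164 TPM (-0.01, interval -0.21 to 0.18). HNRNPM had 115 and 120 TPM against 95.6 and 138 TPM (-0.03, interval -0.51 to 0.45). The groups overlapped in these 3 genes. The canonical transcripts of SRSF8, HNRNPA0, SF3B5 and HNRNPA1L2 have no intron. The first 2 of these genes had the lowest log2 fold changes of the 52 genes, SF3B5 was higher as given above, and HNRNPA1L2 stood at -0.08 on the log2 scale.

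The same fit was read for 3 lists of other splicing genes, beside which 11.8% of all genes were called and 30.1% had an unadjusted P under 0.05. Of 26 entries for other RNA-binding splicing regulators, 1 was called, the muscleblind gene MBNL1, which rose from 60.9 and 61.0 TPM to 105 and 90.5 TPM (log2 fold change 0.67, SE 0.11, adjusted P = 0.0348 by limma). At an unadjusted P under 0.05, 2 entries of this list were higher and 2 lower. None of 16 tested SR protein kinases and SR-related factors, such as SRPK1, CLK1, TRA2B and SON, was called, and none had an unadjusted P under 0.05. None of 26 other U1, U2, U5 and tri-snRNP proteins was called, with 3 higher and 4 lower at an unadjusted P under 0.05. The median log2 fold changes of the 3 lists were 0.03, 0.13 and -0.04, beside 0.11 for all genes tested.

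The overexpression comparison set all 6 libraries labelled U11 overexpression against their 2 controls. The 6 libraries were taken as separate units, although they belong to 3 line labels with 2 libraries each. P, SE and intervals of this comparison leave that grouping out. None of the 52 genes was called with limma, against 1.93% of the 15768 genes tested, and 1 of 52 had an unadjusted P under 0.05, against 6% of all genes. That gene was SRSF7, which also takes part in mRNA export. It was at 162 and 158 TPM in the controls, against 140 and 113 TPM for line label 79, 130.2 and 136 TPM for 86, and 128 and 130.1 TPM for 87. All 6 overexpression libraries were below both controls. The log2 fold change was -0.31 (SE 0.09), and it did not hold after adjustment (adjusted P = 0.526 by limma). Within each of the 2 series of library numbers the difference from that series' control was -0.29 and -0.32 on the log2 scale. The 95% interval stayed within a fold change of 1.5 for 49 of the 52 genes, against 61.1% of all genes tested. The exceptions were HNRNPH2, SRSF4 and SNRPA.

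SRSF4, a long SR protein, showed a wide spread in its controls, at 135 and 86.0 TPM. Its overexpression libraries were at 98.7 and 86.8 TPM for line label 79, 86.5 and 90.8 TPM for 86, and 63.6 and 68.5 TPM for 87. The pooled log2 fold change was -0.40 (SE 0.21, adjusted P = 0.889 by limma). It was -0.73 in the first series of library numbers and -0.08 in the second, so that most of the difference lay in the first series. SNRPA, which binds a loop of U1 snRNA, was at 52.9 and 50.6 TPM in the controls. It was at 60.4 and 83.6 TPM for line label 79, 60.2 and 50.4 TPM for 86, and 57.4 and 78.6 TPM for 87 (pooled log2 fold change 0.30, SE 0.18, adjusted P = 0.898 by limma). One library of line label 86 was below both controls.

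HNRNPF, SRSF7 and HNRNPH3 were the only genes of the 52 whose overexpression libraries did not overlap the controls, each downward, against 9.87% of all genes tested, and 5.24% downward. HNRNPF was at 545 and 519 TPM in the controls, and the overexpression libraries had a highest value of 516 TPM (pooled log2 fold change -0.20, SE 0.11, adjusted P = 0.898 by limma). The 2 genes called in the knockout comparison were not called here. HNRNPLL had control levels of 16.8 and 18.8 TPM, beside 17.8 and 16.7 TPM for line label 79, 15.4 and 16.6 TPM for 86, and 15.1 and 13.3 TPM for 87 (log2 fold change -0.16, 95% interval -0.43 to 0.10). SRSF8 had control levels of 18.8 and 18.5 TPM, beside 20.2 and 19.8 TPM for 79, 21.7 and 20.6 TPM for 86, and 18.4 TPM in both libraries of 87 (0.08, interval -0.12 to 0.29). In both genes the overexpression libraries overlapped the controls. Of the 3 lists of other splicing genes, none had a called entry in this comparison, against 1.93% of all genes, and 1 entry of each had an unadjusted P under 0.05, against 6%. These were RNPS1, which was lower, and MBNL1 and LSM2, which were higher.

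The other 3 genes with a U12-type intron stayed close to their controls. SRSF10 had 114.9 and 114.5 TPM in the controls, 134 and 111 TPM for line label 79, 103 and 110.1 TPM for 86, and 124 and 119 TPM for 87 (log2 fold change 0.02). HNRNPL had 405 and 371 TPM in the controls, 394 and 372 TPM for 79, 441 and 395 TPM for 86, and 397 and 383 TPM for 87 (0.03). HNRNPM had 338 and 332 TPM in the controls, 353 and 387 TPM for 79, 335 and 388 TPM for 86, and 348 and 295 TPM for 87 (0.06). In each of the 3 genes the overexpression libraries overlapped the controls.

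Because the TPM of U11 differed between the line labels by orders of magnitude, each label was also set against the 2 controls in a fit with 4 groups. The 3 comparisons share these controls. For line label 87, with the highest U11 TPM of this comparison, 1 of 52 genes was called, against 5.13% of 15768 genes. It was SRSF4, with a log2 fold change of -0.70 (SE 0.20, adjusted P = 0.128 by limma). The call rested on the control replicate 1, a number that was assigned here and is not given in its label. Without that control the value was -0.38 and no gene was called. The call also needed the replicate 1 library of line label 87, without which SRSF4 was at -0.65 and not called, and SNRPA was called in its place. No gene of the 52 was called for line label 79, against 7.95% of all genes, or for line label 86, against 3.6%. At an unadjusted P under 0.05 there were 5 genes for line label 79, 2 for 86 and 5 for 87, against 24.1%, 13.5% and 17.8% of all genes. SRSF7 was below both controls for each label, with log2 fold changes of -0.34 for 79, -0.27 for 86 and -0.31 for 87. Among the 3 lists of other splicing genes, 1 entry was called for a line label, beside the shares of all genes given above. This was ELAVL1, lower for 86 at 24.4 and 24.7 TPM, against 54.1 and 57.6 TPM in the controls. ELAVL1 was also at 25.7 TPM in replicate 1 of 87, where it was not called.

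**Figure D3:**
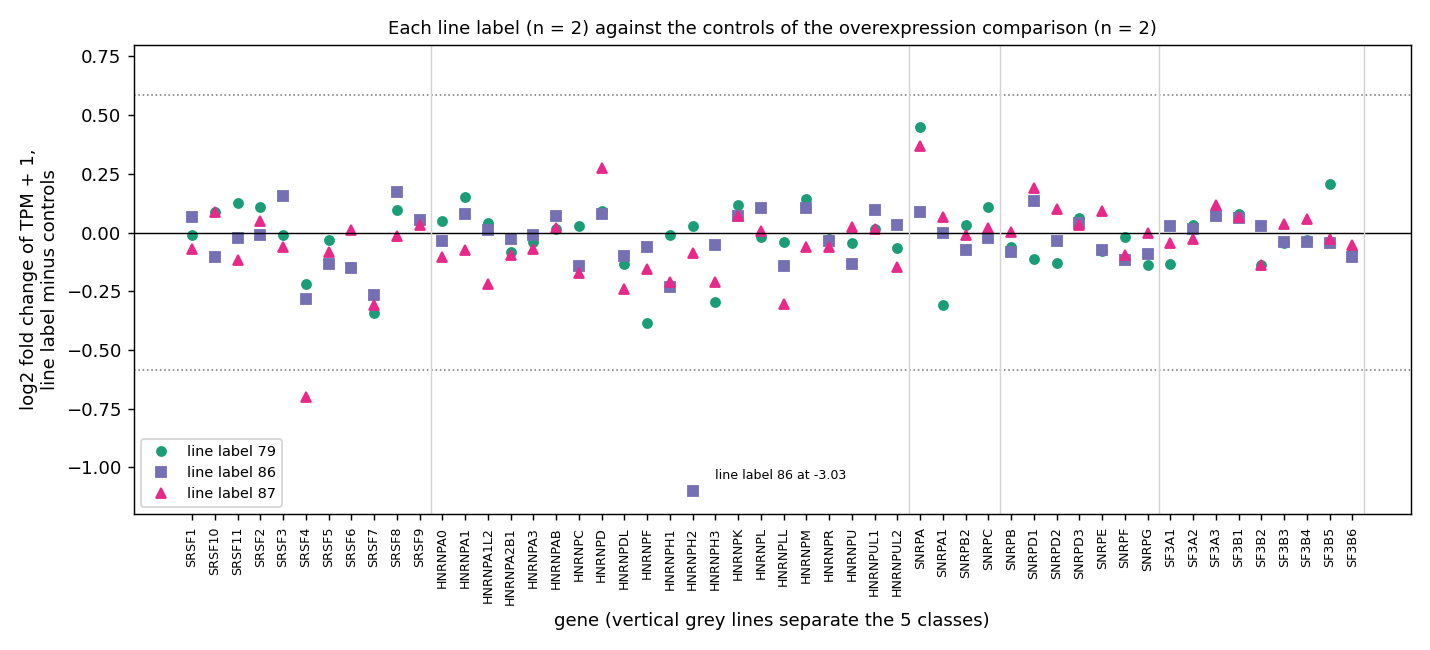
Log2 fold change of TPM + 1 for each line label (2 libraries) against the 2 shared controls, for the 52 genes by class. Dotted lines mark a fold change of 1.5. SRSF4 of line label 87 at -0.70 lies beyond the lower line, and HNRNPH2 of line label 86, drawn at the edge of the axis, is at -3.03.

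A test of the difference between the line labels themselves (limma F-test on 2 degrees of freedom) found 1 of 52 genes at an adjusted P under 0.05, against 16% of all genes. This was HNRNPF (adjusted P = 0.0353 by limma). It was at 416 and 398 TPM for line label 79, 516 and 505 TPM for 86, and 496 and 460 TPM for 87. Both libraries of line label 79 were below all other libraries of the comparison. The count depended on the fit. It was 2 with FPKM, 3 with the library number series as a block (HNRNPF, SF3B5 and HNRNPH3), and 0 without a filter on low values or without the mean-variance trend. HNRNPF was not among the genes found with median ratio scaling, nor in any of the 8 fits that left out 1 library. In the reported fit, next came SF3B5 (adjusted P = 0.0585 by limma), at 198 and 207 TPM for 79, 164 and 175 TPM for 86, and 168 and 175 TPM for 87, beside 174 and 176 TPM in the controls. Both libraries of line label 79 were again apart, here above the rest. HNRNPH3, a smaller relative of HNRNPH1, followed (adjusted P = 0.0594 by limma). It was at 278 and 268 TPM for 79, 325 and 321 TPM for 86, and 292 and 287 TPM for 87, beside 330 and 341 TPM in the controls. Against the controls, the values for line label 79 were -0.39 for HNRNPF and -0.30 for HNRNPH3 (adjusted P = 0.0158 and 0.0223 by limma), both short of the fold change threshold. Line label 79, which stood apart in these genes, had U11 TPM between those of its controls and the highest CDH5 level. It also differed from the controls in 24.1% of all genes at an unadjusted P under 0.05 by limma. The part of U11 or of the line itself in these differences was not tested.

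HNRNPH2, which like HNRNPF binds runs of G, could not be read from its own entry. It lies on chromosome X (chrX:101408295-101414133, plus strand) and overlaps in part the readthrough entry RPL36A-HNRNPH2 (chrX:101391011-101412297), and the 2 entries traded places between libraries. HNRNPH2 was at 1.06 and 120 TPM in the 2 controls of the knockout comparison, where the readthrough entry was at 69.9 and 2.52 TPM. Under the knockout label HNRNPH2 was at 1.01 and 105 TPM and the readthrough entry at 65.5 and 2.596 TPM. In the overexpression comparison, HNRNPH2 was at 2.33 TPM in the replicate 3 library of line label 86, with 129 TPM for the readthrough entry. It was at 199.97 and 208 TPM in the controls, 199.5 and 217 TPM for line label 79, 188 TPM in replicate 1 of 86, and 188 and 195 TPM for 87, with 2.79 to 16.3 TPM for the readthrough entry. The libraries with low HNRNPH2 were thus those with a high readthrough value, in controls and labelled libraries alike.

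**Figure D4:**
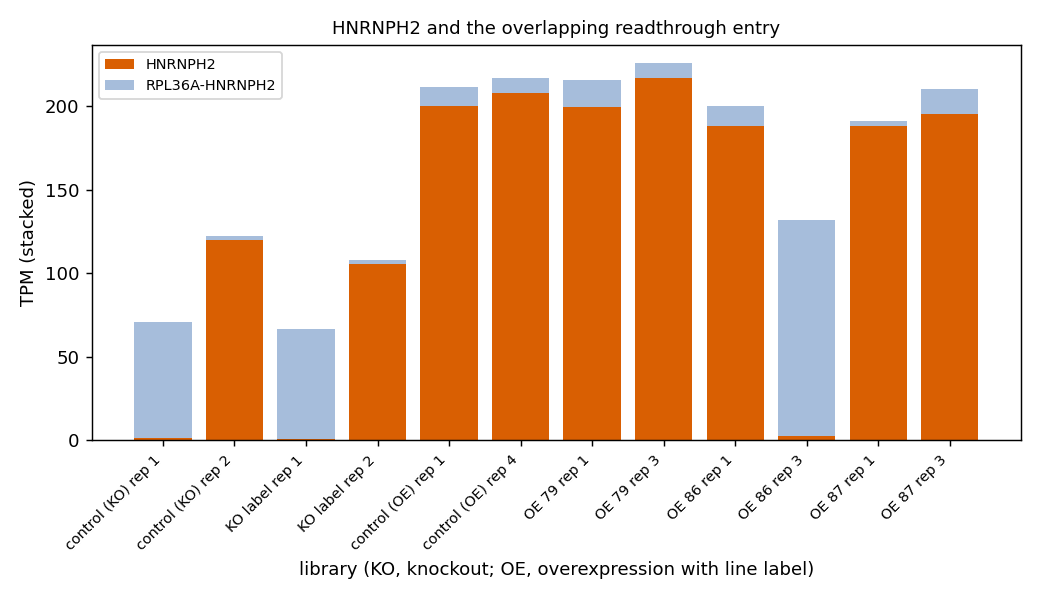
Stacked TPM of HNRNPH2 (orange) and of the overlapping entry RPL36A-HNRNPH2 (blue) in the 12 libraries. In 3 libraries nearly all of the sum lies in the readthrough entry, with HNRNPH2 at 1.06, 1.01 and 2.33 TPM.

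The fold changes of HNRNPH2 alone were accordingly without precision, at -0.11 (SE 2.63) in the knockout comparison and -1.03 (SE 1.48) in the overexpression comparison. Summed over both entries, the level was 71.0 and 122 TPM in the controls and 66.6 and 108 TPM under the knockout label. In the overexpression comparison the sum was 211 and 217 TPM in the controls, with a log2 fold change of -0.15. Under the overexpression label it was 132 TPM in replicate 3 of line label 86 and 191 to 225 TPM in the other libraries. In both comparisons the libraries with a high readthrough value had the lowest sums. The sum thus still followed the exchange between the entries, and its fold change is not read as a change in level. The summed value was added after the data were seen, and it changed none of the counts of called genes above. HNRNPA1L2 is uncertain as well, since all windows of its transcript are shared with a longer overlapping entry at 2.42 to 7.45 TPM. Of its windows, 13.6% also occur in HNRNPA1, which was at 422 to 1455 TPM. HNRNPA1 itself shared 6.55% of its windows with other genes, mostly HNRNPA1P7. HNRNPA3 shared 5.27%, mostly with HNRNPA3P6. SRSF1 shared 26.1% of its windows with an overlapping entry that reached at most 5.47 TPM, beside 137 to 337 TPM of SRSF1 itself.

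The controls of the 2 comparisons differed in the levels of the 52 genes. All 52 genes had a higher mean TPM in the controls of the overexpression comparison, as did 12209 of the 12798 genes at 1 TPM in these 4 libraries. The median ratio of the 52 genes was 2.36, with a range from 1.60 (SF3B5) to 8.49 (HNRNPA3). For all 12798 genes it was 1.98. The hnRNPs had a median ratio of 2.69, the SR proteins 2.38, the core Sm proteins 2.23, the U1- and U2-specific proteins 2.07, and the SF3A and SF3B subunits 2.04. A ratio over 5 was found in 4 of the 52 genes, beside 1.59% of all genes. These were HNRNPA3 (38.0 ± 4.04 against 323 ± 6.50 TPM, SD, n = 2 each), HNRNPH3 (54.3 ± 4.29 against 336 ± 8.26 TPM), HNRNPD (61.0 ± 6.46 against 370 ± 16.5 TPM) and SRSF11 (32.5 ± 10.9 against 165 ± 17.2 TPM). HNRNPD, known as AUF1, binds AU-rich elements, and HNRNPA3 is a relative of HNRNPA1 and HNRNPA2B1.

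**Figure D5:**
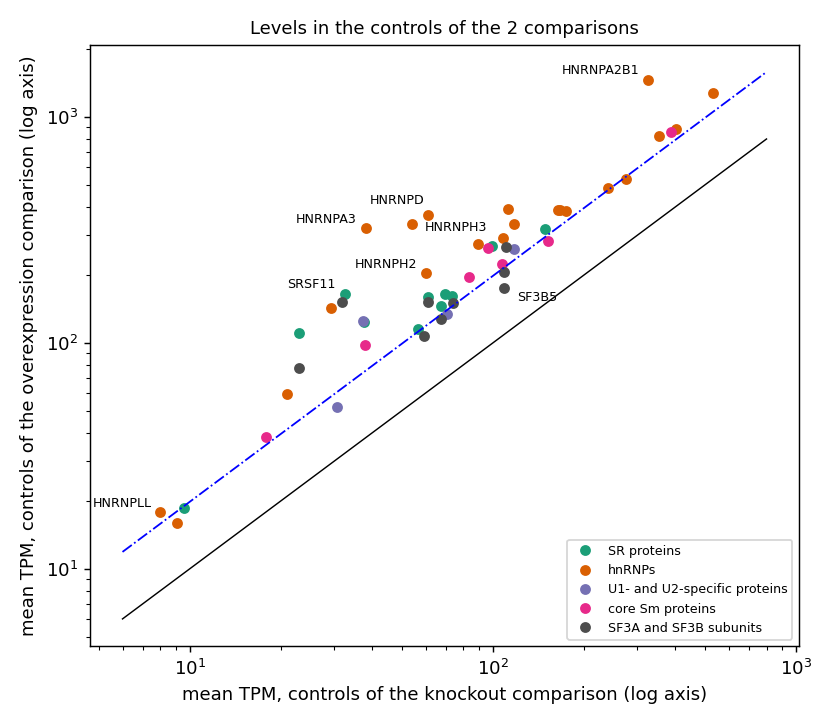
Mean TPM of the 52 genes in the 2 controls of the knockout comparison (x, log axis) and in the 2 controls of the overexpression comparison (y, log axis). The solid line marks equal levels and the dash-dotted line the median ratio of all genes (1.98). All points lie above the solid line, and HNRNPA3, HNRNPH3, HNRNPD and SRSF11 lie farthest above the dash-dotted one.

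The 2 sets of libraries also differed in make-up. The 89 histone genes summed to 27662 to 34279 TPM in the knockout comparison and to 103 to 180 TPM in the overexpression comparison, and the 10 most abundant genes held 45.5% to 49.6% and 7.1% to 7.6% of all TPM. The 52 genes together held 0.54% to 0.60% of TPM in the former and 1.46% to 1.51% in the latter. Comparison, library numbers and library make-up changed together, so that they cannot be told apart, and levels were not tested across the 2 sets.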

How the data were processed

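The authors aligned paired reads to hg38 with Hisat2 and ran Stringtie on each library. They deposited, per gene, a coverage signal (the average read depth over its positions), the FPKM (fragments scaled by length and depth) and the TPM. The labels name a TruSeq kit, whereas the methods describe rRNA removal. Read counts were not analysed here, so the study's DESeq2 step was replaced. Genes were followed by identifier, and coordinates are those of the deposited tables (hg38) or, for introns, of GENCODE 44.

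Among the libraries compared, a gene needed 1 TPM in at least 2 to be tested. Tests were two-sided, with limma 3.58.1 in R 4.3.3 (lmFit, eBayes with trend) on log2(TPM + 1), and P was adjusted over all genes tested (Benjamini-Hochberg). This scale understates changes of low genes. TPM holds no counting error, so precision came from the spread between libraries. U11 was compared with an exact permutation test of the means. Windows of 150 bases from GENCODE 44 transcripts were matched exactly between genes. The fits were run on simulated data with independent noise of one size for every gene and library. That simulation held no line grouping and no series effect, so it does not show how the fits behave with these. Tables and figures were made in Python 3.11.15 with scipy 1.17.1, pandas 2.3.3, numpy 2.4.6 and matplotlib 3.10.9.

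The genes and lists were chosen with earlier results of these data known. Named with the value of every library compared were genes called in either comparison, the 5 with the largest log2 fold change in each, the 3 with the largest F between line labels, and those with a U12-type intron. Alternatives were FPKM, median ratio scaling, quantile normalization, a pseudocount of 0.1, other filters, no trend, other call rules, all 4 controls, replicate blocks and each library left out.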

Additional observations from a re-analysis of the deposited data

Results flagged for a closer look

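In the 6 overexpression libraries, 5 of the 52 genes had 1 library far from the others by Dixon's test. For 6 values of one population, chance gives such a library in about 1 of 20 genes. These libraries came from 3 line labels and 2 series of library numbers, and the share over all genes was not computed. The count is therefore not read as an excess. HNRNPH2 stood at 2.33 TPM in the replicate 3 library of line label 86, where the others lay between 188 and 217 TPM, and there the readthrough entry RPL36A-HNRNPH2 stood at 129 TPM. The same library was the highest for SRSF3 (197 TPM, the others from 152 to 165 TPM) and for HNRNPAB (411 TPM, the others from 386 to 392 TPM). The replicate 1 library of line label 86 was the highest for HNRNPL at 441 TPM, with the others from 372 to 397 TPM. For SNRPF the replicate 1 library of line label 79 was the highest at 100.1 TPM, with the others from 88.3 to 92.4 TPM. HNRNPF was the only one of the 52 genes whose level differed between the 3 line labels after adjustment (limma F-test, adjusted P = 0.0353). It was not found with any of the 8 libraries left out, with median ratio scaling, without a filter on low values or without the mean-variance trend.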

How the results depend on the processing

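In the knockout comparison, 2 of the 52 genes were called. The count was 4 with FPKM (1 up, 3 down), 5 with median ratio scaling (1 up, 4 down), 4 with quantile normalization (1 up, 3 down) and 11 without a fold change threshold. Leaving out each library in turn gave 2 to 4, the highest without control replicate 2. The overexpression count of 0 became 1 without a fold change threshold and 24, all upward, with all 4 controls. It was 0 to 1 with a library left out, with 1 (SRSF4 at -0.73) without control replicate 4. Without a fold change threshold the counts were 5 for line label 79, 2 for 86 and 5 for 87, and the call of line label 87 was 0 with adjusted P. With a library left out they were 0 to 1 for each label. The change came without overexpression replicate 1 of line label 79, without overexpression replicate 1 of line label 86 or control replicate 4 for line label 86, and without control replicate 1 for line label 87. Without overexpression replicate 1 of line label 87 the count for 87 stayed at 1, but the gene was SNRPA in place of SRSF4 (-0.65). Between the line labels, 1 gene differed in the reported fit, 2 with FPKM, 0 without a filter, 0 without the mean-variance trend and 3 with the replicate block. With median ratio scaling it was SF3B5 in place of HNRNPF. Leaving out a library gave 0 to 1, with 0 without either replicate of line label 79, or replicate 3 of 86 or of 87, and in the other 4 fits the gene was HNRNPH2, SNRPA1 or SRSF4 in place of HNRNPF. With all 4 controls the direction reversed for SF3B5 under the knockout label (-0.014) and under the overexpression label for HNRNPH2 (0.82), SRSF4 (0.69), SRSF7 (0.39) and HNRNPF (0.27), and HNRNPLL fell short of the threshold at 0.35. That setting joins controls of different library make-up, and the cause was not tested otherwise. The libraries were not taken as paired. The groups of the knockout comparison shared the numbers 1 and 2, and same-numbered libraries had deviations that correlated at 0.02. In the overexpression comparison the block was the series of library numbers, with replicates 1 and 3 of the lines and 1 and 4 of the controls, and the correlations of 0.07 to 0.15 were not all above 0.1. The replicate block gave 2 called genes in the knockout comparison, 0 in the overexpression comparison and for line labels 79 and 86, and 1 for 87. The spread rested on 2 libraries per group, since TPM keeps no counts.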
